A study of Lathyrus oleraceus with 16 samples.

Results

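Shoot apices of pea that had restarted growth after proliferative arrest (Reactivated) were compared with apices of young plants that had just begun to flower (Proliferative). The comparison takes 8 of the 16 libraries of the series, 4 in each group, assigned to their groups by the labels. All plants were wild-type Pisum sativum of the cultivar Cameor. They were grown in a greenhouse with 16 h of light at 21.5 °C and 8 h of dark at 15 °C. Reactivated apices were collected 24 h after every flower and fruit had been cut from plants whose apices had arrested. The Arrested group, taken at the moment of arrest, and the Pruned group, sampled on the day of arrest from plants whose constant pruning had kept them seedless, serve here only to show where a gene stood at arrest. Proliferative apices came from plants with a flower bud but no open flower. Each group's 4 libraries are biological replicates per the labels, which do not say how many apices were pooled. Reactivated and Proliferative plants thus differ in age, in having borne seeds, in having arrested and in the cutting 24 h before, and these cannot be told apart in this contrast. The labels do not say when the groups were collected relative to each other, so a difference in collection date cannot be told apart from them either.

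The shoot apical meristem is the group of stem cells at the tip of the shoot that forms leaves and, after the floral transition, flowers. In many annual plants, pea among them, a plant that carries enough developing seeds stops making flowers while its meristem is still present. This proliferative arrest can be undone by taking off the fruits. In Arabidopsis the arrested apex has been described as resembling a dormant bud, and FRUITFULL, a transcription factor, promotes the arrest by repressing genes of the APETALA2 family. Whether a restarted apex returns to the expression state of a young one is the question the comparison addresses.

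Gene expression was measured by sequencing polyadenylated RNA, and the values are counts of reads per gene. Totals ran from 17690746 to 22463721 counts in Reactivated and from 17588462 to 24051585 in Proliferative. The table lists 48559 gene IDs beginning with Psat, and 23979 had enough counts to be tested. No names stand beside the IDs in the files, and 0 IDs matched the RefSeq gene table, so no function, position or sequence is given. For the same reason the tissue could not be checked against meristem, leaf or flower markers. The apices were dissected by eye, so a library can hold neighbouring tissue, and fewer cells of a type cannot be told from less RNA per cell in such bulk samples.

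Reactivated apices did not show the Proliferative expression profile at 24 h. In Reactivated, 4431 genes were higher (18.5% of those tested) and 5422 were lower (22.6%), while 14126 had no call. A call is a Benjamini-Hochberg adjusted p under 0.05 in edgeR's quasi-likelihood test, fitted on all 16 libraries. Higher genes had a median log2 fold change of 0.84, with the middle 50% between 0.58 and 1.26, and lower genes had a median of -1.02, with the middle 50% between -1.68 and -0.66. The median standard error was 0.15 for higher and 0.22 for lower genes. On the TMM scale the 4 Reactivated libraries did not overlap the 4 Proliferative ones in 86.1% of the higher and 78.7% of the lower genes, which the calls largely fix by their construction. The share over all genes tested is not given here, so these shares add nothing to the calls.

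When the change had to exceed 2-fold with statistical support (edgeR's glmTreat, adjusted p under 0.05), 599 genes were higher (2.5% of those tested) and 917 were lower (3.82%) in Reactivated, 6.32% in all. A missing call does not show equal levels, so the 95% interval of each difference was also taken from limma-voom. It lay wholly within 2-fold either way for 11111 genes, 46.3% of those tested. Of the 14126 genes with no call, 8329 were bounded in this way and 5797 had intervals too wide to say. A further 2782 genes were called and still bounded within 2-fold.

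The balance of higher and lower calls depended on how libraries were scaled. TMM factors, a scaling that takes most genes as unchanged or as changing evenly up and down, averaged 0.795 ± 0.036 in Reactivated and 1.03 ± 0.037 in Proliferative (SD, n = 4 each). With them the median of all genes lay at -0.09 on the log2 scale and 44.97% of the calls were higher in Reactivated. With library totals instead, the median of all genes lay at -0.46, and 2282 genes were higher and 10054 lower, so that 18.5% of the calls were higher. The 2282 higher genes were all among the 4431, the 5422 lower genes were all lower again, and 0 genes were called in opposite directions on these scales.

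**Figure D1:**
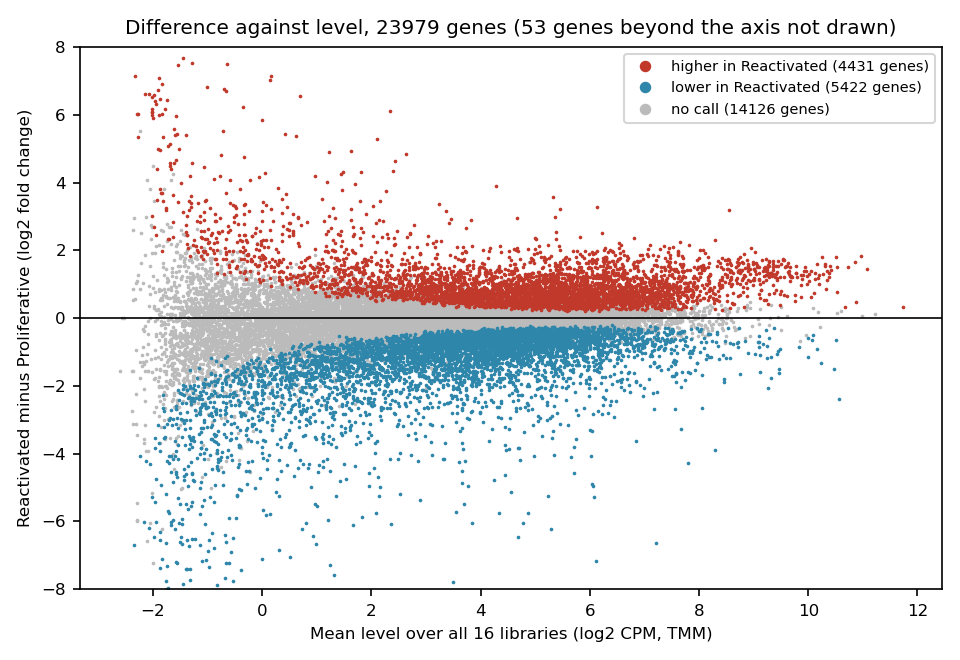
Reactivated minus Proliferative log2 fold change (vertical axis) against the mean level over all 16 libraries in log2 CPM (horizontal axis), 1 point per gene, coloured by its call in edgeR. The called genes have a median of 0.84 when higher and -1.02 when lower, and red points outnumber blue ones at the right, where genes are abundant; 53 genes lie beyond the axis.

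The sequenced RNA of Reactivated apices was concentrated in fewer genes. The 100 most abundant genes of each library took 20.2%, 17.4%, 21.03% and 19.3% of counts in Reactivated 1 to 4, against 15.6%, 12.7%, 12.6% and 14.3% in Proliferative 1 to 4. Every Reactivated library lay above every Proliferative library. The difference was 5.69 percentage points (two-sided exact permutation test, p = 0.0286, the smallest that 4 libraries against 4 can give; 0.0367 after Benjamini-Hochberg adjustment over 9 library values). The 10 most abundant genes took 3.85% ± 0.22 in Reactivated and 2.69% ± 0.30 in Proliferative, and the 1000 most abundant took 54.8% ± 2.36 and 44.4% ± 2.77 in the same order (SD, n = 4; exact permutation p = 0.0286 for each). Genes with 1 or more counts numbered 26009 ± 211 in Reactivated and 26831 ± 648 in Proliferative (SD, n = 4), and the groups overlapped because Proliferative 1 had 25921 (exact permutation p = 0.0857). Leaving out Proliferative 1, the library that made the groups overlap, gave a difference of -1125 (exact permutation p = 0.0286). That is the smallest p that 3 libraries against 4 can give. It was fixed by removing the only Proliferative library that overlapped, so it adds no support. Leaving out any other single library gave -903 to -636 and did not pass (exact permutation p = 0.0857 to 0.143). Arrested libraries had 25925 ± 435 genes detected, near Reactivated. Their 10 most abundant genes took 4.85% ± 0.46 of counts, above Reactivated (SD, n = 4). Neither of these 2 values was thus particular to Reactivated. The 100 and 1000 most abundant genes took 14.7% and 39.8% in Arrested, shares below those of Reactivated.

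These shares do not depend on a scaling factor, but they depend on which genes are ranked. When the ranks were set by the 8 Arrested and Pruned libraries, which take no part in the comparison, the top 100 genes took 13.4% ± 0.67 of counts in Reactivated and 12.1% ± 1.08 in Proliferative (SD, n = 4), a difference that did not pass (exact permutation p = 0.0857). The next 900 genes took 34.9% ± 1.74 in Reactivated and 29.8% ± 1.70 in Proliferative, and those beyond rank 5000 took 20.8% ± 1.10 and 25.5% ± 1.64 in the same order (SD, n = 4; exact permutation p = 0.0286 for each). This ranking was chosen after the data had been seen.

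Calls followed the level of the gene in the same way. In the most abundant 10% of genes, with a median of 144 CPM, 47.9% were higher and 16.8% lower in Reactivated. In the least abundant 10%, with a median of 0.615 CPM, 7.46% were higher and 17.1% lower. With library totals the most abundant 10% split into 31.5% higher and 34.1% lower, and the least abundant into 5.67% and 25.1%. The median log2 fold change of the most abundant 10% was thus 0.32 with TMM factors and -0.06 with library totals, in both cases above that of all genes. With these classes set by the Arrested and Pruned libraries, 954 of the 2398 most abundant genes were higher and 563 lower in Reactivated with TMM factors, and 615 and 1007 with library totals.

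The most abundant genes of both groups were mostly low at arrest. Of the 10 with the highest mean level in Reactivated, 9 were higher than in Proliferative and 0 were lower, and all 10 were lower in Arrested than in Pruned, as were 36.6% of all genes tested. Together they took 3.83% of counts in Reactivated, 1.002% in Arrested, 1.87% in Pruned and 2.05% in Proliferative. Of the 10 most abundant genes of Proliferative, 3 were higher and 5 lower in Reactivated, 8 were lower in Arrested than in Pruned, and 3 belonged to both lists. The lists were picked on these same libraries, so their direction is a description.

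Psat2g033920 showed this pattern and had the largest rise in CPM of all genes that met the naming rule. It had 5653, 4985, 5756 and 4988 CPM in Reactivated 1 to 4, against 1795, 1911, 2024 and 2045 CPM in Proliferative 1 to 4. The groups did not overlap, and the spread within each was small beside the gap. Its log2 fold change was 1.84 (SE 0.11, edgeR adjusted p = 1.17e-08) with TMM factors and 1.46 with library totals. It stood at 811 ± 57.7 CPM in Arrested and 1896 ± 143 CPM in Pruned (SD, n = 4), lower in Arrested by edgeR's test (log2 fold change -1.44, SE 0.11, adjusted p = 1.07e-08). The Pruned and Proliferative levels lay side by side, and Reactivated lay above both.

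**Figure D2:**
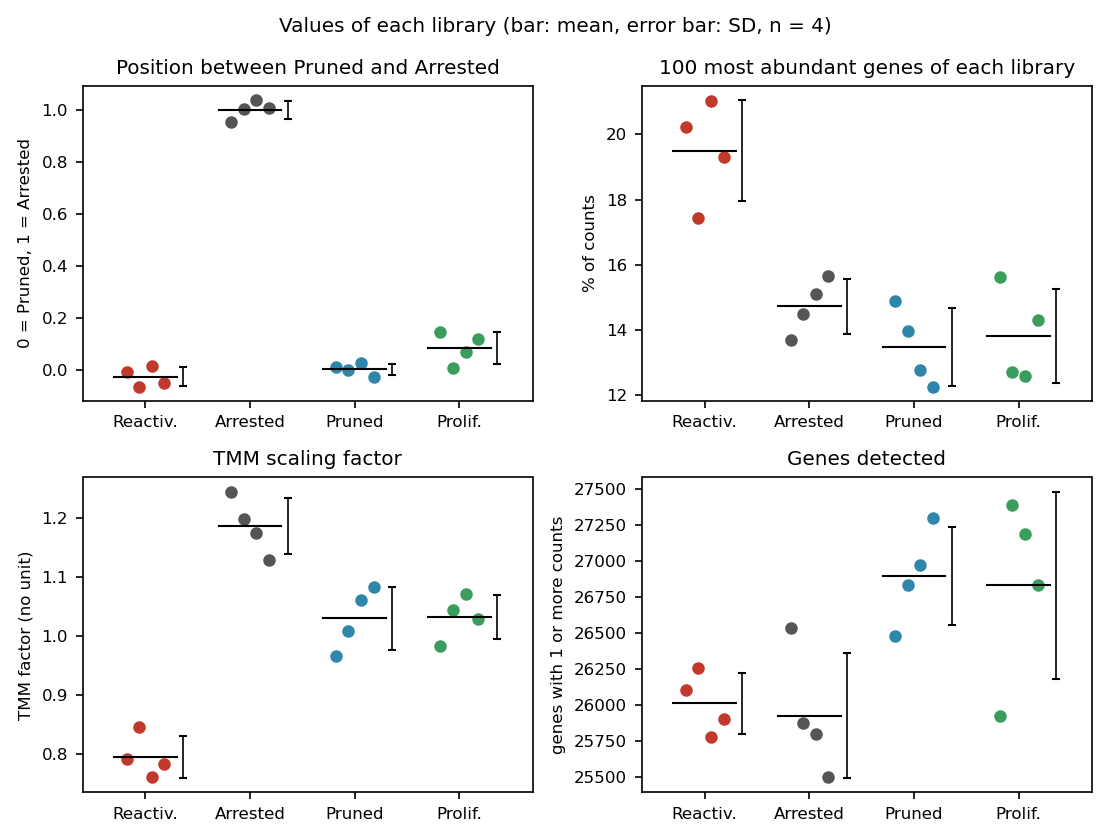
Values of each library (points) with the group mean (bar) and SD (n = 4) for the position between Pruned and Arrested, the share of counts in the 100 most abundant genes, the TMM factor and the number of genes detected. Reactivated libraries lie near 0 on the position scale, hold the largest shares in 100 genes (17.4% to 21.03%) and have the lowest TMM factors (0.760 to 0.845).

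The contrast of Arrested with Pruned shares no library with Reactivated or Proliferative, so it was used to sort genes by their state at arrest. In Arrested, 7568 genes were higher (31.6% of those tested) and 8777 lower (36.6%) than in Pruned by the same edgeR test, 68.2% in all, and 7634 had no call. Genes are called high at arrest or low at arrest below on that basis. Among genes low at arrest, 2513 (28.6%) were higher in Reactivated than in Proliferative and 1616 (18.4%) were lower. Among genes high at arrest, 877 (11.6%) were higher and 2507 (33.1%) lower. Among genes with no call at arrest, 1041 (13.6%) were higher and 1299 (17.02%) lower.

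Read from the other side, more differences between Reactivated and Proliferative ran against the direction of arrest than along it, all sizes counted. Rises over 4-fold by fitted size did not. Of the 4431 higher genes, 56.7% were low at arrest, 19.8% were high at arrest and 23.5% had no call there. Of the 5422 lower genes, 46.2% were high at arrest, 29.8% were low at arrest and 24.0% had no call there. Among the genes past 2-fold, 372 of 599 higher genes were low at arrest and 137 high, and 464 of 917 lower genes were high at arrest and 289 low. By fitted size the order turned among the higher genes. Of 191 that were 4-fold to 8-fold higher, 79 were high at arrest and 67 low, and of 144 over 8-fold higher, 103 were high at arrest and 12 low. These 144 were scarce genes, with a median level of 1.24 CPM in the higher of the 2 groups. The filter on low counts used all 16 libraries, so scarce genes could enter through their Arrested or Pruned counts. That can shape the split of these classes, which was not recomputed with another filter. Among lower genes, those between 2.83-fold and 4-fold split into 233 high and 246 low at arrest, and those over 8-fold into 196 and 184. Across all 23979 genes the 2 sets of log2 fold changes had a Pearson r of 0.0999 and a Spearman rho of -0.12, weak and of opposite sign. Genes are not independent replicates, and both contrasts draw on 1 fit with shared scaling and spread.

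The size of the arrest difference sorted these genes further. Among genes less than 1.41-fold low at arrest, 40.5% were higher in Reactivated than in Proliferative and 12.9% lower. Among the 1681 genes over 8-fold low at arrest, the order was turned, with 8.39% higher (141 genes) and 36.6% lower (615 genes). Their median log2 fold change between Reactivated and Proliferative was -0.62, with median levels of 3.62 CPM in Reactivated and 8.07 CPM in Proliferative. The genes most strongly lost at arrest were therefore more often below the young level than above it at 24 h. The count of lower genes was 384 and that of higher genes 78 without Proliferative 3 and 4, and 783 and 53 with library totals.

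Genes high at arrest showed no such turn. Of the 1123 that were over 8-fold high at arrest, 15.4% (173 genes) were higher in Reactivated than in Proliferative and 29.1% (327 genes) lower. Between 2-fold and 4-fold the shares were 8.49% and 37.4%. These strongly arrest-linked genes were scarce in both active states, with medians of 0.655 CPM in Reactivated and 1.16 CPM in Proliferative, and 4.01% of them could be bounded within 2-fold. Of genes less than 1.41-fold high at arrest, 85.2% could be bounded. The median standard error was 0.61 in the first class and 0.12 in the second, so precision differs between them. The 173 became 96 when only the 8 libraries of each contrast were fitted. The 327 became 526 with library totals and 215 with limma-voom. Without Proliferative 3 and 4 the class held 199 higher and 217 lower genes, so the excess of lower calls was small in that setting.

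**Figure D3:**
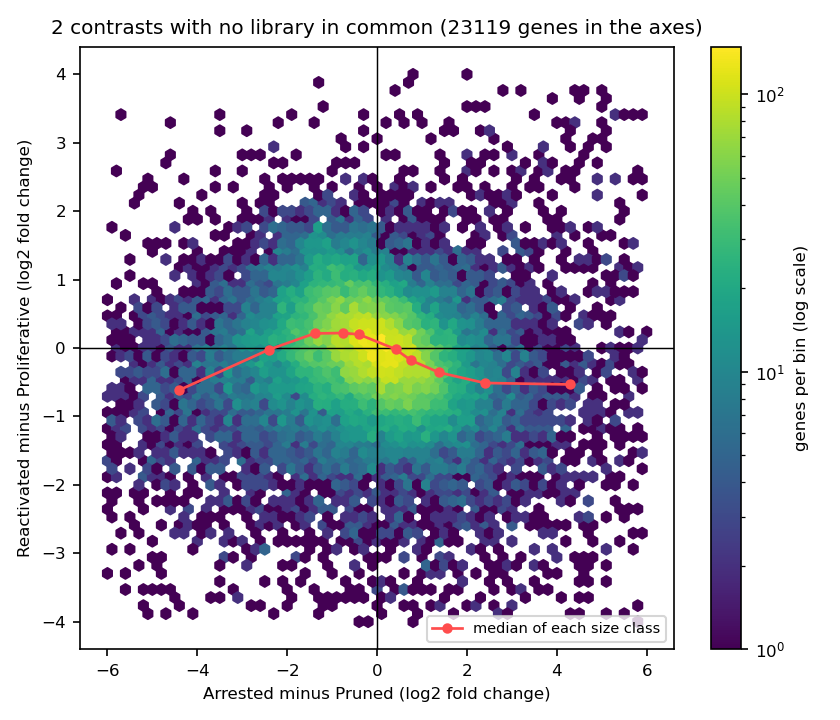
Reactivated minus Proliferative (vertical axis) against Arrested minus Pruned (horizontal axis), both as log2 fold changes, for 23119 genes in bins coloured by the number of genes; red points are the medians of genes called at arrest, in classes of size, and 860 genes lie outside the axes. The medians run from -0.62 for genes over 8-fold low at arrest, through 0.22 for genes 1.41-fold to 2-fold low, to -0.53 for genes over 8-fold high.

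**Figure D4:**
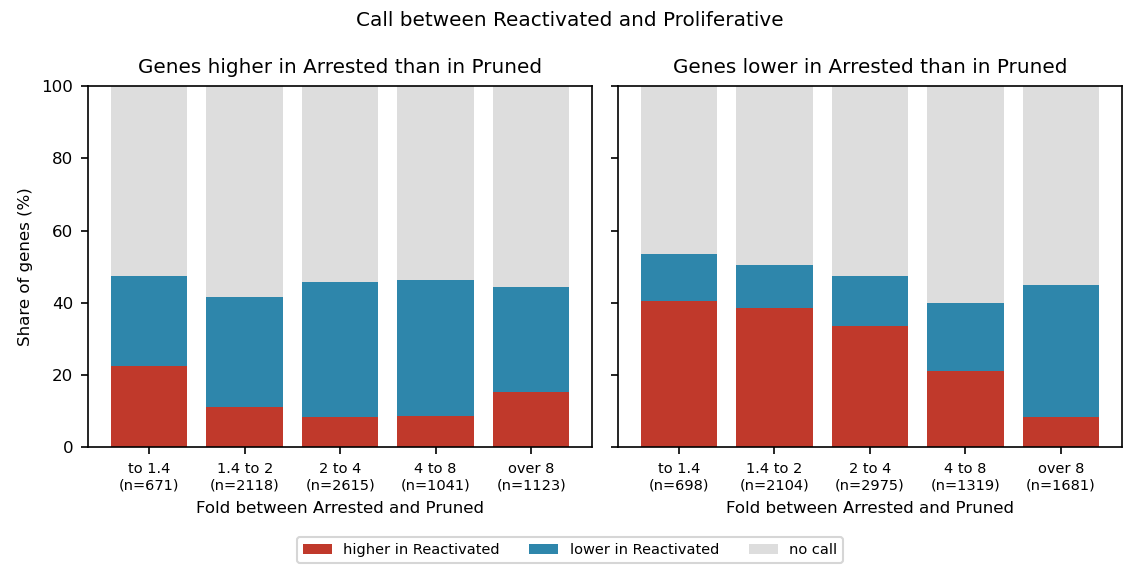
Share of genes (%) higher, lower or with no call in Reactivated against Proliferative, for classes of the fold between Arrested and Pruned, with the number of genes under each bar. Among genes low at arrest the higher share shrinks to 8.39% in the class over 8-fold and the lower share reaches 36.6%, while genes high at arrest keep more lower than higher calls in every class.

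The whole profile was placed on a scale with Pruned at 0 and Arrested at 1, as the median over genes called between those groups. Reactivated 1 to 4 lay at -0.00763, -0.0657, 0.0118 and -0.0525, and Proliferative 1 to 4 at 0.143, 0.00480, 0.0682 and 0.119. Both groups stood near the Pruned end, and 1 pair of libraries out of order, Reactivated 3 above Proliferative 2, made the groups overlap. Over genes high at arrest, Reactivated lay at -0.0579 ± 0.037 and Proliferative at 0.125 ± 0.077 (SD, n = 4), with no overlap. Over genes low at arrest, the values were -0.000513 ± 0.038 in Reactivated and 0.0563 ± 0.050 in Proliferative (SD, n = 4), and the groups overlapped. The median hides genes that lie far to either side. With library totals Reactivated lay at -0.0715 on this scale.

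Relative to Proliferative, the Pruned group served as an older apex that had never arrested. It shares the Proliferative libraries here, so its levels are given side by side without a test. Over the 4431 higher genes the median difference from Proliferative was 0.84 in Reactivated, -0.46 in Arrested and 0.05 in Pruned on the log2 scale. Over the 5422 lower genes it was -1.001 in Reactivated, 0.25 in Arrested and -0.12 in Pruned. Pruned lay nearer to Reactivated than to Proliferative in 10.6% of the higher and 15.4% of the lower genes. The largest such share was 25.7%, in the 2507 lower genes that were high at arrest, whose median in Pruned was -0.25. All these gene sets were picked for a difference between Reactivated and Proliferative. No share over all genes tested is given, so the shares are a description.

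A small number of genes switched between silent and on. A gene was counted as on in a group at 1 CPM or more in each library, and as silent at 3 or fewer counts over its 4 libraries. In all, 6 genes were on in Reactivated and silent in Proliferative, and 5 of them were also on in Arrested. All 6 were higher in Arrested than in Pruned, as were 31.6% of all genes tested, and 4 of the 6 were silent in Pruned. They had means between 2.51 and 61.1 CPM in Reactivated and at most 3 counts in Proliferative.

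Of the genes on in Reactivated and silent in Proliferative, Psat1g095640 had the most counts, 4724 in Reactivated against 3 in Proliferative. Psat1g095720 had the largest fitted log2 fold change of the higher genes under the naming rule. It had 14.8, 17.6, 17.8 and 15.4 CPM in Reactivated 1 to 4, against 0 counts in each of the 4 Proliferative libraries. Pooled over the libraries this was 1264 counts in Reactivated and 0 in Proliferative, at least 432-fold higher when 3 counts over the group are taken as the floor. In Arrested it had 31.1 ± 6.31 CPM (SD, n = 4) and in Pruned 1 count in all. It passed edgeR's test with an adjusted p of 5.72e-09; its fitted log2 fold change of 11.68 depends on the prior count and is no measure of the fold.

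In the other direction, 6 genes were on in Proliferative and silent in Reactivated, of which 3 were on and 2 silent in Arrested. That number rested on Proliferative 1, without which it was 49. The 43 genes added had a median of 0 CPM in Proliferative 1, against 3.53, 7.39 and 6.26 CPM in Proliferative 2, 3 and 4. Summed over the 43 genes, the level was between 0.170 and 0.424 CPM in the Reactivated libraries. It was between 2.15 and 4.87 CPM in Arrested, and in Pruned 1 to 4 it was 205, 3479, 15.9 and 422 CPM. In Proliferative 1 to 4 it was 2.69, 251, 1192 and 978 CPM. The genes were thus present in some libraries of both never-arrested groups, while Proliferative 1 lay within the range of the Arrested libraries. Their absence from Reactivated was fixed by the way they were chosen. Of all genes tested, 22.6% were lower in Reactivated, and 36.6% were lower in Arrested than in Pruned. Of the 43, 41 were called lower in Reactivated, and 42 were lower in Arrested than in Pruned. They were chosen on the Reactivated and Proliferative libraries, and a share of other tissue in the dissected apices was not tested. The count of 6 was also 15 without Reactivated 4 and 11 without Proliferative 2, and the count of genes on in Reactivated was 14 without Proliferative 3.

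Psat2g189840, which had the largest fitted fold drop under the naming rule, was among these 43 genes. It had 0 counts in each Reactivated library, against 0.112, 17.8, 69.2 and 52.2 CPM in Proliferative 1 to 4. Proliferative 1 lay close to 0, so 2 counts in that library separated the groups. Pooled over the libraries the gene was at least 874-fold lower in Reactivated, with 3 counts over the group as the floor. In Arrested it had 0.100 ± 0.122 CPM, and in Pruned 36.6 ± 59.5 CPM (SD, n = 4). It passed edgeR's test (adjusted p = 0.00753) and failed limma-voom (adjusted p = 0.349). When the 8 libraries of this comparison were fitted alone, it did not pass the filter on low counts and was not tested.

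The same question was put to genes set by Arrested and Proliferative alone. Of 46 genes on in Arrested and silent in Proliferative, 5 were on, 15 were silent and 26 lay between in Reactivated. Their median level in Reactivated was 2.03% of that in Arrested. Of 40 genes on in Proliferative and silent in Arrested, 14 were on, 2 were silent and 24 lay between. Their median level in Reactivated was 48.9% of that in Proliferative, and 20 of the 40 were at 50% or more. All but 2 of the 40 were thus detected at over 3 counts. In Pruned, 26 of the 40 were on, and 28 of the 46 were silent. Both median percentages divide by the libraries in which the genes were chosen as on, and this choice by itself tends to lower them.

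The 25 largest rises and the 25 largest drops by fitted fold were taken among genes that met the naming rule. That rule asks for 10 CPM in the higher group and no overlap. Of the 25 rises, 14 were high at arrest, 5 were low and 6 had no call, where 31.6% of all genes tested were high and 36.6% low. Their median levels were 33.2 CPM in Reactivated, 28.4 in Arrested, 3.44 in Pruned and 1.84 in Proliferative. In 1 of the rises the highest Reactivated library exceeded 3 times the lowest, and in 13 the highest Proliferative library did. Of the 25 drops, 12 were high at arrest, 9 were low and 4 had no call. The share low at arrest was close to that of all genes, and the share high at arrest was above the 31.6% of all genes. Their medians were 0.246 CPM in Reactivated, 27.5 in Arrested, 17.7 in Pruned and 37.5 in Proliferative. In 24 of the 25 drops the highest Proliferative library exceeded 3 times the lowest, and in 12 the highest Reactivated library did. What the drops would be without the highest libraries was not tested.

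Psat0s1212g0160 had the largest drop in CPM. It had 473, 697, 714 and 1305 CPM in Reactivated 1 to 4, against 4278, 2931, 2303 and 2052 CPM in Proliferative 1 to 4. The groups did not overlap, although the highest Reactivated library and the lowest Proliferative library were less than 2-fold apart. Its log2 fold change was -1.49 (SE 0.37, edgeR adjusted p = 0.00438) with TMM factors and -1.86 with library totals. In Arrested it had 416 ± 236 CPM and in Pruned 5180 ± 794 CPM (SD, n = 4), lower in Arrested by edgeR's test (log2 fold change -3.83, SE 0.41, adjusted p = 4.61e-07). The gene was thus low at arrest, and its mean at 24 h lay between those of Arrested and Proliferative, with Arrested 4 at 770 CPM inside the Reactivated range.

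**Figure D5:**
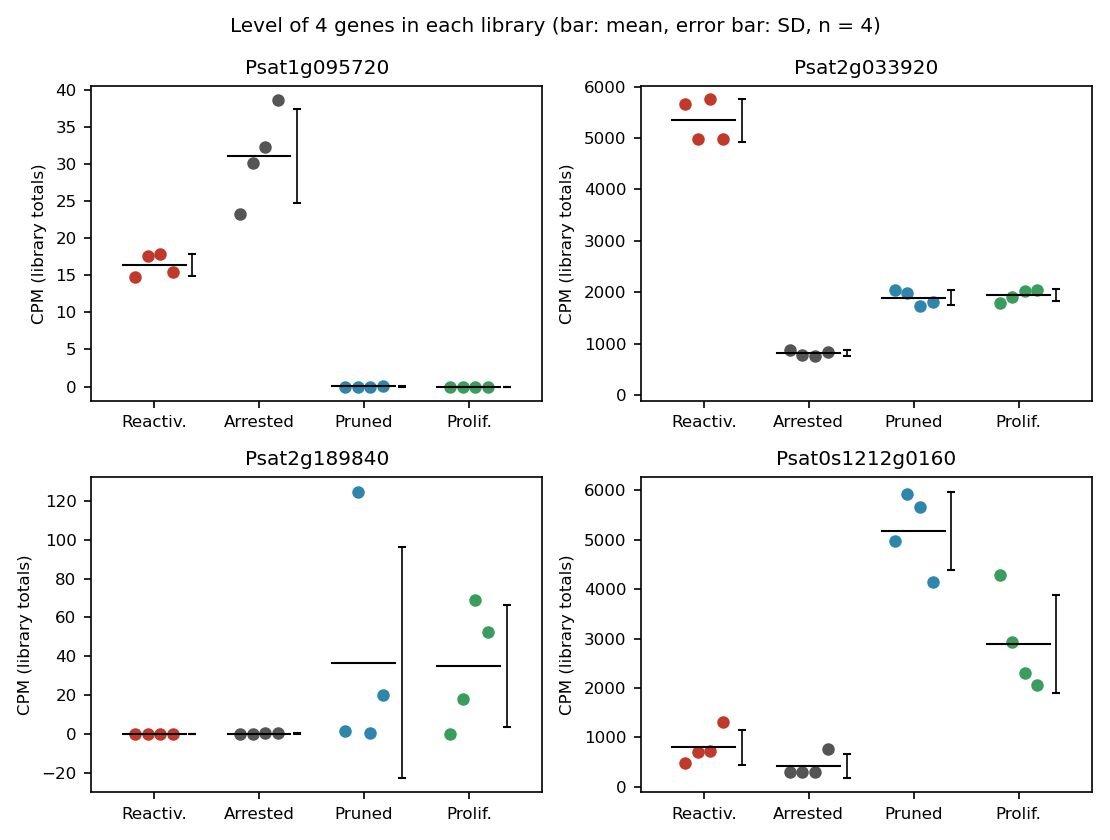
Level of the 4 named genes in each library (CPM from library totals), with the group mean (bar) and SD (n = 4). Psat1g095720 is at 0 counts in Proliferative and between 14.8 and 17.8 CPM in Reactivated, Psat2g033920 is highest in Reactivated, and Psat2g189840 and Psat0s1212g0160 lie below Proliferative, the first of these with uneven Proliferative and Pruned libraries.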

How the data were processed

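The authors deposited unnormalized read counts for each gene in 1 table of 16 libraries. The tools named in the submitters' processing notes are HISAT2, cutadapt, DESeq2 and HTSeq; versions, genome build and annotation are not given in the sources used here. Per the labels, libraries were strand-specific and made from polyadenylated RNA, but the deposited counts are named as made without regard to strand, so antisense or overlapping neighbours and near-identical copies could not be separated. All values were whole numbers, and 0 rows named no gene.

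The analysis used edgeR 4.0.16 in R 4.3.3. The filter filterByExpr left 23979 genes holding at least 99.7% of each library's counts. TMM factors and 1 quasi-likelihood fit on 4 groups were used, with no covariate. Intervals came from limma-voom (limma 3.58.1). CPM is the count scaled by the library total; log2 CPM had a prior count of 2 and TMM scaling. A standard error is the size of the log2 fold change divided by the square root of F. DESeq2 1.42.0, other scalings and filters, fewer libraries and a replicate block were alternatives. The steps were run on simulated counts in which few genes changed, evenly up and down. Those counts lack the difference in TMM factors between the groups, so they cannot decide the choice of scaling. Libraries of a group differed beyond sampling noise (chi-square per degree of freedom 11.5 or more), so none was a copy.

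Genes were named by a rule: called, no overlap of CPM between the groups, and a mean of 10 CPM or more in the higher group. Of these, the genes with the largest fitted fold and the largest CPM difference in each direction were taken. Lists of pathway genes and tissue markers needed names and were not run. The comparison, its gene classes and the rule were chosen with earlier results of these data known.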

Additional observations from a re-analysis of the deposited data

Results flagged for a closer look

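In groups of 4 libraries, 76 sets of values were examined for a library far from the others, and 5 had one, where chance flags about 5% of sets. Psat0s1212g0160 stood at 770 CPM in Arrested 4, against 286 to 305 CPM in the other Arrested libraries. Psat2g189840 stood at 125 CPM in Pruned 2, against 0.229 to 19.8 CPM in the other Pruned libraries. Psat1g095720 had its only Pruned count in Pruned 4, 0.0466 CPM. The tested genes held 99.690% of counts in Proliferative 3 and 99.700% in Pruned 2, the lowest of their groups, where other libraries of these groups held at least 99.9%.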

How the results depend on the processing

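Library totals in place of TMM factors changed most values: 2282 higher and 10054 lower genes, of which 525 and 2627 lay on the arrest side, 1225 and 4921 ran against it and 532 and 2506 had no call there. On that scale 265 genes were past 2-fold higher and 1871 lower. Of genes over 8-fold high at arrest 526 were lower in Reactivated than in Proliferative, and of those over 8-fold low 53 were higher. Reactivated lay at -0.0715 on the position scale. Without Proliferative 3 and 4, 1077 lower genes lay on the arrest side, 814 had no call there and 601 were past 2-fold. In that setting 217 genes over 8-fold high at arrest were lower and 199 higher. Of those over 8-fold low at arrest, 384 were lower and 78 higher. For genes over 8-fold high at arrest, limma-voom gave 215 lower and fits of 8 libraries 96 higher. The cause of these shifts was not tested. A bound of 1.5-fold left 4447 genes. Genes that switched numbered 2 each way with silent set at 0 counts, and 18 were on in Proliferative with on set at 0.5 CPM. Leaving out 1 library gave 6 to 14 genes on in Reactivated, 6 to 49 on in Proliferative, -1125 to -636 detected genes, and 3.71 to 4.63 percentage points for ranks 1 to 100 over all 16 libraries, where the full value of 4.08 became 1.396 with ranks from Arrested and Pruned. Leaving out 1 library gave 3987 to 4565 higher and 4187 to 5106 lower genes, and DESeq2 gave 5093 and 5386. A pairing of libraries by replicate number was not shown. Deviations from the group means correlated at -0.0683, 0.588, -0.188 and 0.0965 for numbers 1 to 4, and 1 of 4 Reactivated libraries correlated best with its own number. With 4 libraries in each group these values cannot decide whether the numbers mark a pairing. With the replicate block 4192 genes were higher and 4977 lower. Of 377 recomputed values, 343 stayed within 1.5 times the full count, within 1 SD of a library position, or in direction and side of the threshold where there was a test. Genes under about 1 CPM had the widest errors, with a median standard error of 0.79 in the least abundant 10%.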

Other observations

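The differences between Reactivated and Proliferative were spread evenly over the gene IDs. In the 7 numbered ID series, from Psat1 to Psat7, between 17.9% and 19.5% of tested genes were higher and between 22.5% and 23.3% lower in Reactivated. Reactivated libraries were also more alike than Proliferative ones. The median SD within a group was 0.27 in Reactivated and 0.30 in Proliferative on the log2 scale, and the SD was larger in Reactivated for 41.4% of genes. Libraries correlated across genes at a mean r of 0.973 within Reactivated, 0.9498 within Proliferative and 0.910 between them, as a description.

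A block of 134 genes with at least 50 counts in all had over 95% of them in Proliferative 3, Proliferative 4 and Pruned 2. These libraries held 47873, 10553 and 72940 counts of the block, and no Reactivated library held more than 43. The filter on low counts left 10 of these genes, and 8 of the 10 were called between Reactivated and Proliferative, where 41.1% of all genes tested were called. The block was picked for its counts in Proliferative 3 and 4, so these calls are a description. Their part in the other results was not tested.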
